A study of Mus musculus with 3 samples.

Results

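The 32 genes described here belong to mitochondrial fatty acid oxidation. They cover fatty acid binding and activation, the carnitine shuttle and its brake malonyl-CoA, the enzymes of beta-oxidation, the proteins that receive its electrons, and 2 transcriptional regulators. The members were named by gene symbol from pathway knowledge. The rule uses no measured value, but earlier results of these data were known when it was written. All 32 symbols were found among the 17583 genes of the table, and all 32 had at least 1 normalized count in every mouse. A mean of at least 50 was reached by 29 of them and by 11956 genes in all. The 3 members below this mean were Cpt1b, Ucp3 and Ppara.

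The samples are 3 adult EC-RiboTag mice, which form a single group and from whose hearts the RNA on tagged endothelial ribosomes was sequenced. All 3 carry Cdh5-CreERT2, a Cre recombinase that works after tamoxifen in cells using the Cdh5 (VE-cadherin) promoter, and Rpl22tm1.1Psam, an allele from which Cre makes the ribosomal protein Rpl22 with a hemagglutinin tag. The labels put the hearts at 7 days after coronary ligation for myocardial infarction (MI), whereas the RiboTag methods of the study name no infarction, and the titles hold "Rz", which the labels leave unexplained. In another experiment on such mice the study writes RZ for the remote zone of the infarcted heart, and the sources do not say whether these libraries came from whole hearts or from that zone. No input, sham or untagged library was analysed here. The values are therefore levels in 1 condition, and no effect of MI or of the immunoprecipitation could be tested.

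Fatty acids taken up by a cell are bound by small carrier proteins and joined to coenzyme A by acyl-CoA synthetases. Carnitine palmitoyltransferases and a carnitine carrier bring long acyl chains into the mitochondrial matrix, and malonyl-CoA inhibits the entry enzyme. In the matrix each turn of beta-oxidation dehydrogenates, hydrates, dehydrogenates again and cleaves the chain, and electrons pass through electron transfer flavoprotein to the respiratory chain. Cardiomyocytes are known to draw most of their energy from this pathway, and endothelial cells are known to use it for nucleotide synthesis and redox balance and to hand fatty acids on to the muscle.

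Endothelial and cardiomyocyte RNA were both present in the libraries. Values below are normalized counts, meaning reads per gene divided by a size factor for each library, and genes are compared with each other only as normalized count per kilobase of the canonical transcript. On this scale the median of 12 endothelial markers was 710.9 and that of 12 cardiomyocyte markers was 565.2, with every cardiomyocyte marker detected, from Ttn, the giant spring protein of the sarcomere (78.5), to Myl2, the ventricular myosin light chain (819). Medians were 91.4 for 6 fibroblast markers, 47.1 for 6 mural cell markers, 28.7 for the 5 of 6 leukocyte markers in the table and 2.42 for the 4 of 6 adipocyte markers in the table. The part of cardiomyocyte RNA in the levels of the members was not tested, and more cells of a type and more RNA per cell cannot be told apart. The authors removed duplicate reads, which in single-end data are reads with the same start and strand, so that a transcript keeps about 1 read per position and values near 1000 per kilobase are compressed. Of 11943 genes of known length that reached a mean of 50, 14 (0.117%) lay above 1000 per kilobase and 545 (4.56%) above 500. The endothelial and cardiomyocyte medians both lay above 500, so their ratio is not read as a measure of purity. Of the members, 1 lay above 500 per kilobase and 4 above 500 per 1000 positions from which a read could be assigned, so ratios between abundant members and the most abundant genes are understated by an amount that these values do not give.

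**Figure D1:**
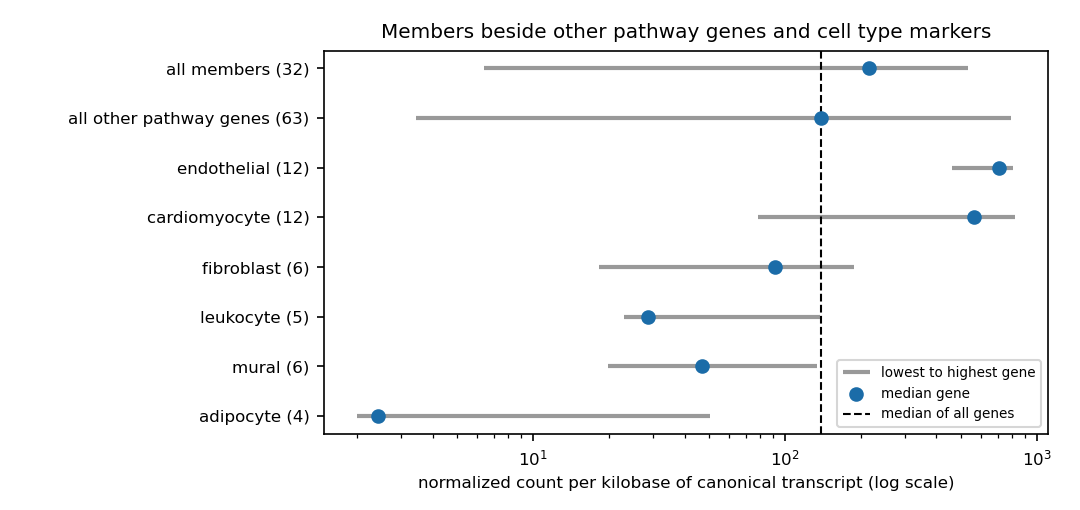
Normalized count per kilobase of canonical transcript (x axis, log scale) for the members, the other pathway genes and 6 lists of cell type markers, with the number of genes found in the table in brackets. Points are the median gene of a list (mean of 3 mice), bars run from the lowest to the highest gene, and the dashed line is the median of all genes tested, 139.6; the members' median of 216.5 lies to its right and below both the endothelial and the cardiomyocyte median.

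Per kilobase, the median member stood at 216.5 ± 19.7 (SD over mice, n = 3), against 139.6 for all genes tested. Of the 32 members, 21 lay above the median of all genes and 14 above their upper quartile, which was 254.5. Levels differed between roles. Medians were highest for the auxiliary enzymes of unsaturated chains (394.8) and the acyl-CoA dehydrogenases (359.9), followed by the hydratase to thiolase steps (274.4) and electron transfer (265.8). They were lower for thioesterases (189.3), the binding protein Fabp3 (187.1), the carnitine shuttle (134.4), the malonyl-CoA enzymes (131.2) and activation (115.6), and lowest for the regulators (18.6) and the uncoupling protein Ucp3 (16.6). The order of the upper groups depended on the scale. Per 1000 windows of 72 bases from which a read could be assigned, the hydratase to thiolase steps (414.6) and electron transfer (413.8) stood above the acyl-CoA dehydrogenases (394.4) and Fabp3 was at 390.9. A second count kept windows with a copy elsewhere where they cross an exon junction. There the hydratase to thiolase steps (363.8) stood below the dehydrogenases (393.3), and electron transfer (406.2) above them. The auxiliary enzymes stayed highest in both counts (432.6). Per kilobase of all annotated exons the dehydrogenases (184.0) stood above the auxiliary enzymes (112.7). The canonical transcripts of the members were shorter than those of all genes tested, with medians of 2390 and 3503 bases.

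**Figure D2:**
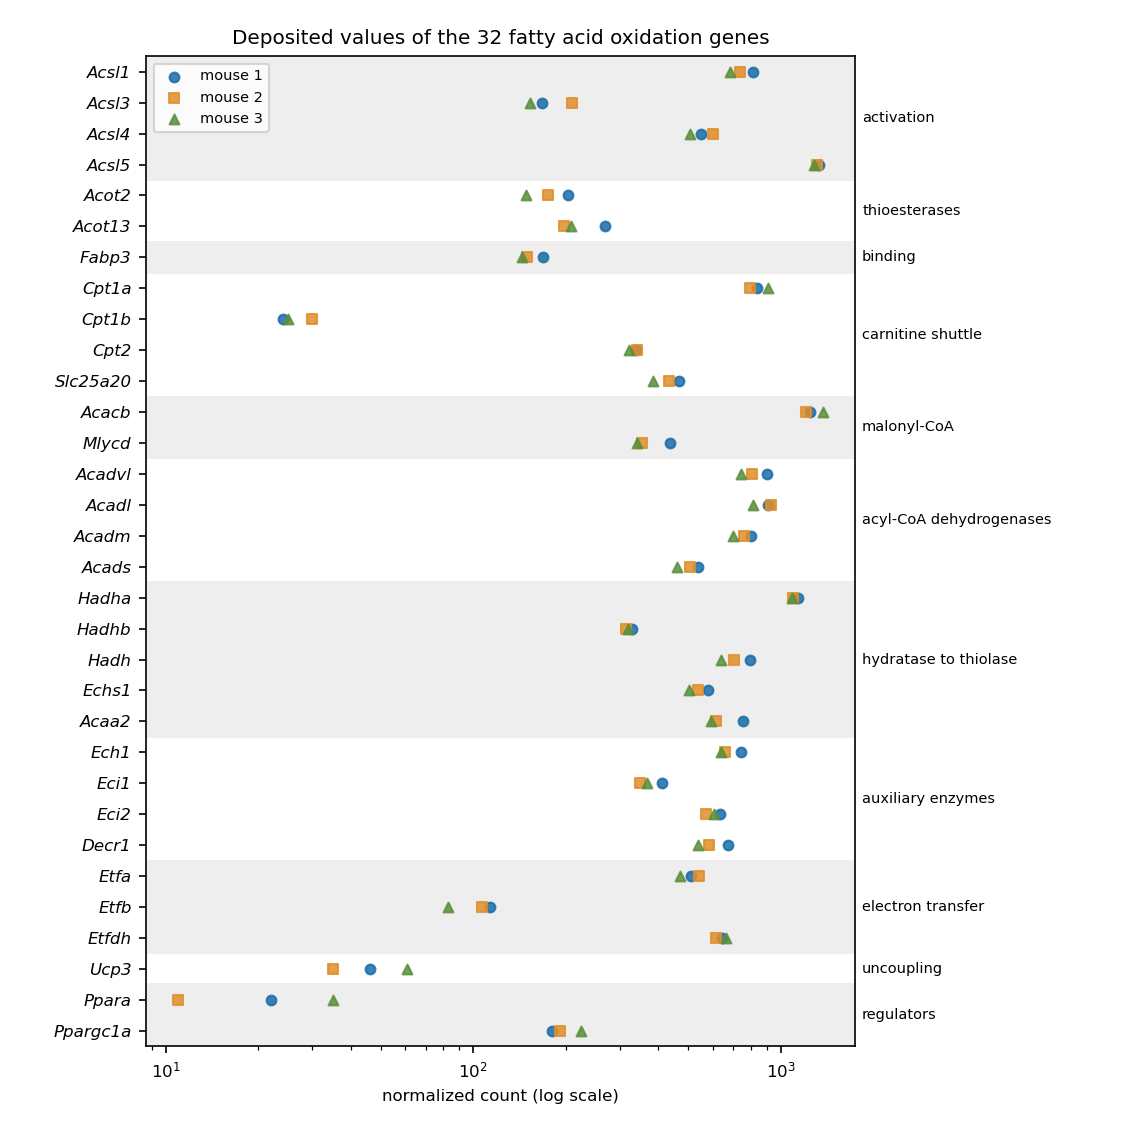
Normalized count (x axis, log scale) of each member in mouse 1 (circles), mouse 2 (squares) and mouse 3 (triangles), with members grouped by role. Values run from 11 for Ppara in mouse 2 to 1370 for Acacb in mouse 3, the mice lie close together for most members, and they lie far apart for Ppara.

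Among the acyl-CoA synthetases, Acsl5, an isoform of the mitochondrial and endoplasmic reticulum membranes, had the highest mean normalized count of all members, with 1332, 1316 and 1286 in mice 1, 2 and 3 (chr19:55240370-55286152, GRCm39). Acsl1, the main isoform of heart muscle and fat, gave 812, 738 and 685. Acsl4, which prefers arachidonic acid, gave 549, 602 and 505, and Acsl3, known from lipid droplets, gave 167, 210 and 153. Per kilobase Acsl5 reached 301.3 ± 5.4 (SD, n = 3) and exceeded Acsl1 (128.9 ± 11.04) 2.3-fold, with the same order in all 3 mice. The log2 ratio of Acsl1 to Acsl3 was 1.49 ± 0.24, and that of Acsl1 to Acsl4 was 0.33 ± 0.14. The latter ratio became -1.02 when the length of all annotated exons replaced that of the canonical transcript. Acsl3 shares 284 bases with Utp14b in the annotation used here. Reads there would not be counted for either gene if the authors' annotation held the same overlap, which was not tested.

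Acot13 and Acot2, mitochondrial thioesterases that split acyl-CoA again, differed 4.2-fold per kilobase. Acot13 had normalized counts of 269, 198 and 208 and Acot2 of 203, 175 and 148, and per kilobase they stood at 305.7 ± 52.2 and 73.0 ± 11.4. Acot2 is a near copy of its neighbour Acot1, and 14.97% of its windows of 72 bases, the read length, occur elsewhere. Acot1 itself had values of 57, 41 and 36.

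Fabp3, the fatty acid binding protein of heart muscle, had normalized counts of 168, 150 and 144 (chr4:130202388-130209256), which is 187.1 ± 15.2 per kilobase. Fabp4, the isoform of capillary endothelium and fat, stood at 713.7 ± 64.7 and exceeded Fabp3 3.8-fold, and Fabp5, found in epidermis and endothelium, stood at 449.1 ± 31.0 and exceeded it 2.4-fold, with the same order in each mouse. Fabp3 is harder to count than its length shows, because 47.6% of its windows have an exact copy in the processed pseudogene Fabp3-ps1 and reads mapping to more than one place were removed. The stretch below of the Fabp3 coding sequence, chr4:130206084-130206155 on the plus strand, is shown because it stands letter for letter at chr10:86568108-86568179 on the minus strand.

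Fabp3: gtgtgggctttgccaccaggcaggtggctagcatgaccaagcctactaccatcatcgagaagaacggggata

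Counted per 1000 windows that a read could be assigned from, Fabp3 stood at 390.9 and Fabp4 at 1177, 3.0-fold apart. When copies that only match across exon junctions were kept, the difference was 3.7-fold. Fabp4 was above Fabp3 by either measure, and its own value is in the range that duplicate removal compresses.

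In the carnitine shuttle, Cpt1a, the entry enzyme of most tissues other than muscle, had normalized counts of 836, 796 and 911 (chr19:3372334-3435733). Slc25a20, the carnitine-acylcarnitine carrier of the inner membrane, gave 468, 433 and 384, and Cpt2, which rebuilds acyl-CoA in the matrix, gave 339, 340 and 321. Per kilobase the levels were 240.2 ± 23.7 for Slc25a20, 140.2 ± 4.5 for Cpt2 and 128.6 ± 8.9 for Cpt1a. The last value rests on a canonical transcript of 6594 bases, of which 4331 lie within the gene limits of the deposited table, and per kilobase of these Cpt1a stood at 195.7.

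Cpt1b, the muscle isoform of the entry enzyme, had normalized counts of 24, 30 and 25 (chr15:89300608-89310066, minus strand) in libraries in which the cardiomyocyte markers were abundant. Per kilobase it was 15-fold lower than Cpt1a, with a log2 ratio of -3.90 ± 0.25. This value cannot be read as a level. The annotation used here is newer than that of the authors. In it, 2744 of the 3054 bases of Cpt1b are also exons of the read-through gene Gm44502 on the same strand. The authors left out reads that overlap several genes, but whether their annotation held these exons of Gm44502 was not tested. No more than 14 windows of 72 bases lay within the deposited gene limits and outside Gm44502. Chkb, the other gene that Gm44502 spans, named here after its values were seen, was low as well, with 23, 21 and 19, and Gm44502 has no row in the table. Divided by its 310 bases that no other gene shares, Cpt1b came to a log2 ratio of -0.60 to Cpt1a.

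Acacb, the acetyl-CoA carboxylase of the outer mitochondrial membrane that makes malonyl-CoA for the control of Cpt1, had normalized counts of 1245, 1211 and 1370 (chr5:114284596-114388822). Its cytosolic relative Acaca, the enzyme of fatty acid synthesis, gave 154, 163 and 191. Per kilobase Acacb stood at 140.5 ± 9.2 and Acaca at 17.8 ± 2.0, 7.9-fold apart, and the log2 ratios in the 3 mice lay between 2.91 and 3.08. The pseudogene Gm5182 on chromosome 12 copies 58.4% of the windows of Acaca. Per countable window the difference was 3.4-fold, and 5.4-fold with copies across exon junctions kept, so Acacb was higher by every measure while its excess was not fixed. Mlycd, which breaks malonyl-CoA down again, had values of 435, 354 and 342 and stood at 121.9 ± 16.4 per kilobase. The log2 ratio of Mlycd to Acacb, -0.21 ± 0.24, was within the spread between mice and turned to 0.28 with the length inside the deposited gene limits.

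The 4 acyl-CoA dehydrogenases, which take chains of decreasing length, were all above the upper quartile of all genes. Acadvl, for very long chains, had normalized counts of 904, 804 and 743, Acadl, for long chains, 908, 933 and 815, Acadm, for medium chains, 798, 759 and 699, and Acads, for short chains, 538, 507 and 461. Per kilobase Acadvl (369.7 ± 36.8), Acadm (365.4 ± 24.2) and Acadl (354.4 ± 24.9) differed from each other by less than their spread. Acads stood at 268.3 ± 20.7, and the log2 ratio of Acadm to Acads lay between 0.43 and 0.46 in the 3 mice. It was -0.43 with the length of all annotated exons.

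The trifunctional protein holds 2 subunits, Hadha with the hydratase and the long-chain hydroxyacyl-CoA dehydrogenase and Hadhb with the thiolase. Hadha had normalized counts of 1141, 1094 and 1089 and Hadhb of 329, 313 and 319, and the SD of their log2 ratio per kilobase, 0.80 ± 0.02, was among the smallest of all pairs. Both genes varied between the mice by less than the counting of reads alone gives, so the small SD cannot be read as a constant ratio. The genes lie head to head on chromosome 5, Hadha on the minus strand (chr5:30323302-30360160) and Hadhb on the plus strand (chr5:30360246-30389591), with 85 bases between them. The 1.7-fold excess of Hadha goes with a difference in how many reads can be counted, because 76.7% of the windows of Hadhb have an exact copy in Hadhb-ps or Gm9108 and no window of Hadha has one. The 72 bases of Hadhb below, chr5:30371663-30371734 on the plus strand, are shown because they stand without a difference at chr2:108779263-108779334 (Hadhb-ps) and at chr15:103496612-103496683 on the minus strand (Gm9108).

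Hadhb: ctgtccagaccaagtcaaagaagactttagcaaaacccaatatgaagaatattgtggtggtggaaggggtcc

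Counted per window without any copy, the log2 ratio of Hadha to Hadhb was -1.32, and with copies across exon junctions kept it was 0.15. The direction of this ratio thus differs between these ways of counting, and the subunits cannot be ranked.

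The other enzymes from hydration to thiolysis were Hadh, the hydroxyacyl-CoA dehydrogenase of short and medium chains, with 795, 703 and 639, Acaa2, the matrix thiolase, with 751, 614 and 594, and Echs1, the short-chain hydratase, with 580, 538 and 504. Per kilobase they stood at 398.2 ± 43.8, 372.9 ± 48.8 and 231.0 ± 16.3. In each of the 3 genes mouse 1 had the highest and mouse 3 the lowest value. Echs1 came to 347.2 when only the bases inside the deposited gene limits were used.

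The auxiliary enzymes, which prepare unsaturated chains for the main cycle, held the highest level per kilobase of canonical transcript. Ech1, a dienoyl-CoA isomerase, had normalized counts of 743, 657 and 639 (chr7:28524642-28531672) and stood at 535.6 ± 43.8 per kilobase, above 96.3% of all genes tested. Per 1000 countable windows Ech1 stood at 568.3, below Hadhb (700.9) and Etfb (631.3). Eci2 and Eci1, enoyl-CoA isomerases, gave 636, 573 and 606 and 412, 348 and 368, which is 466.8 ± 24.3 and 322.7 ± 28.1 per kilobase. Decr1, the dienoyl-CoA reductase, gave 673, 584 and 538 and was the lowest of the group per kilobase, at 202.1 ± 23.2. Eci1 was 1.4-fold lower than Eci2 in the same order in every mouse, and the log2 ratio of -0.53 ± 0.05 turned to 0.74 with the length of all annotated exons.

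Electron transfer flavoprotein pairs the subunits Etfa and Etfb, and Etfdh passes its electrons to ubiquinone. Etfa had normalized counts of 509, 541 and 472 and Etfdh of 646, 617 and 663, and per kilobase they stood at 292.7 ± 19.9 and 265.8 ± 9.6, with a log2 ratio of -0.14 ± 0.15 that changed sign between mice. Etfb gave 113, 107 and 83 (chr7:43093507-43107224) and 113.1 ± 17.8 per kilobase, 2.6-fold below its partner. In the annotation used here, 617 of the 893 bases of Etfb are shared with the read-through gene Etfbl, which has no row in the table. Whether the older annotation of the authors held Etfbl was not tested. Divided by the bases that are not shared, Etfb was above Etfa, with a log2 ratio of Etfa to Etfb of -0.31, and per countable window the ratio was -0.60. As for Hadhb and Cpt1b, the low count of Etfb goes with a low share of countable positions, and this pair cannot be ranked either.

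**Figure D3:**
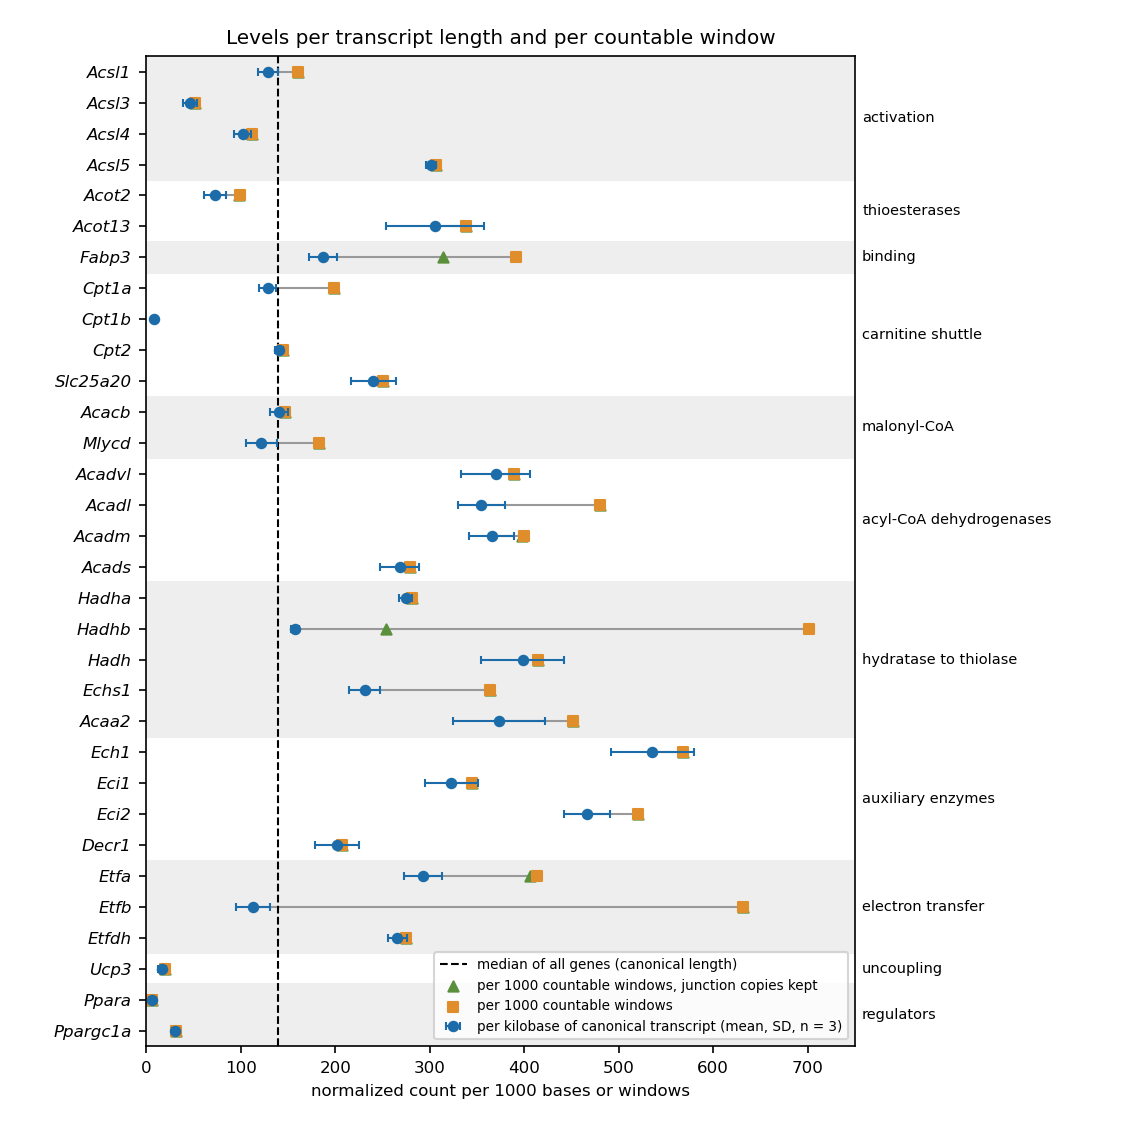
Level of each member (x axis, normalized count per 1000 bases or windows) by role. Circles with bars are the mean and SD over 3 mice per kilobase of canonical transcript, squares are the mean per 1000 countable windows of 72 bases, triangles keep copies that cross exon junctions, and the dashed line is the median of all genes, 139.6. Hadhb, Etfb and Fabp3 move the most between the scales, and Cpt1b has no value per window because 14 windows were too few.

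Over all members, 20 had no copied and no shared window, 7 had some but at most 10%, and 5 had more, namely Cpt1b, Etfb, Hadhb, Fabp3 and Acot2. In 8 members more than 10% of the canonical windows lay outside the gene limits of the deposited table, with the largest shares in Cpt1a (34.7%), Echs1 (34.5%) and Mlycd (31.9%). With the length inside these limits, the median of the members was 221.2 against 156.1 for all genes tested, and 22 of 32 members lay above the latter.

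Ucp3, the uncoupling protein of muscle and brown fat mitochondria, was low, with normalized counts of 46, 35 and 61 (chr7:100122197-100135639) and 16.6 ± 4.6 per kilobase. Its relative Ucp2, which is widely expressed, gave 1255, 1379 and 1248, and Ucp1 of brown fat has no row in the table. No window of Ucp3 was copied or shared, and 14.3% lay outside the gene limits of the deposited table.

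Of the regulators, Ppara, the nuclear receptor for fatty acids in liver and heart muscle, was the lowest member per kilobase. It had normalized counts of 22, 11 and 35 (chr15:85619184-85687020), with mouse 3 above mouse 1 and mouse 2 lowest, and 6.38 ± 3.38 per kilobase. The other members of its family were far higher, with Pparg at 332.2 ± 24.3 and Ppard at 255.9 ± 31.0 per kilobase. By the mean of the log2 ratios within mice they were 58-fold and 44-fold above Ppara. The log2 ratio of Ppara was -5.85 ± 0.80 to Pparg and -5.47 ± 0.70 to Ppard. All of the windows of Ppara were countable, and the difference was 88-fold for Pparg per countable window. Ppargc1a, a coactivator that drives mitochondrial genes, gave 180, 192 and 224 (chr5:51611592-51725068) and 30.7 ± 3.5 per kilobase, 1.7-fold above Ppargc1b at 18.5 ± 3.1.

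**Figure D4:**
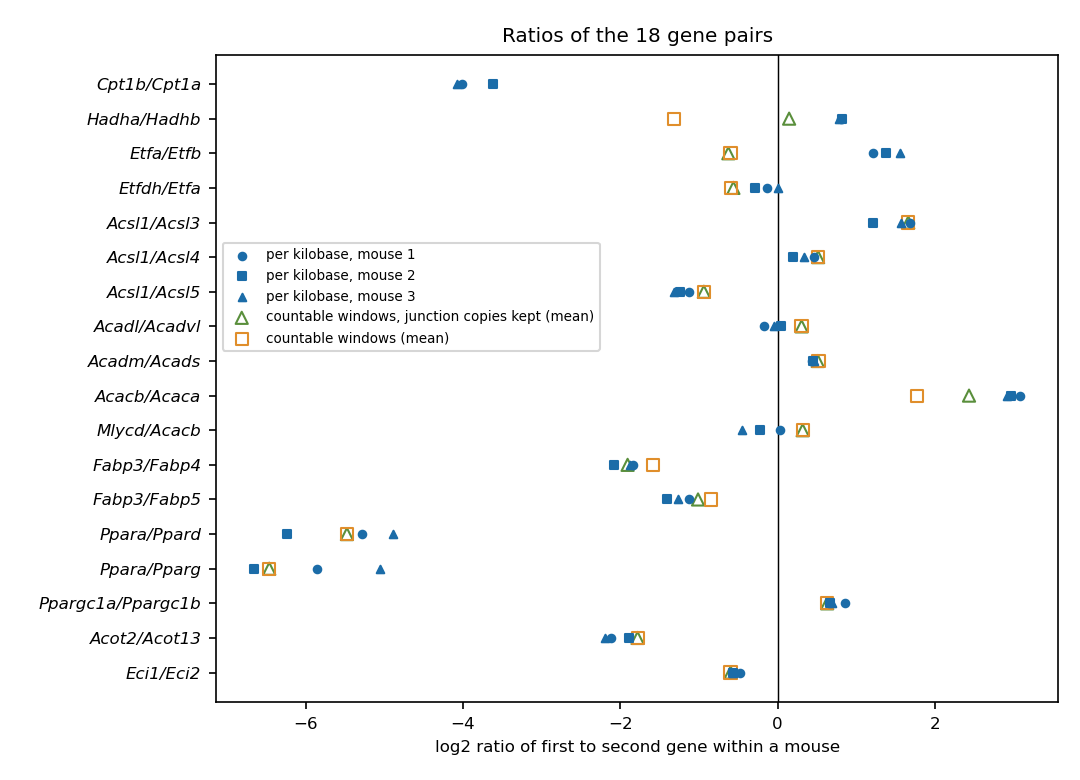
Log2 ratio of the first to the second gene of the 18 pairs (x axis) within each mouse per kilobase of canonical transcript (filled symbols), and the mean ratio per countable window without copies (open squares) and with copies across exon junctions kept (open triangles). Hadha/Hadhb, Etfa/Etfb, Acadl/Acadvl and Mlycd/Acacb cross 0 between the scales, whereas Ppara/Ppard and Ppara/Pparg stay below -4 in every mouse.

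In 15 of the 18 pairs the ratio had the same sign in all 3 mice. For these the exact sign-flip permutation test gave p = 0.25 (two-sided), the smallest value that 3 mice allow, and 0.3 after Benjamini-Hochberg adjustment over the 18 pairs, so that no pair could pass 0.05. The other 3 pairs, Etfdh/Etfa, Acadl/Acadvl and Mlycd/Acacb, had p = 0.5 in the exact test. Along the order of all 32 members by level per kilobase, 13 of 31 adjacent pairs stood further apart than the larger SD of the pair, and 17 had the same order in each mouse. The upper end, Ech1 above Eci2 above Hadh, and the lower end, from Acsl4 through Acot2, Acsl3 and Ppargc1a down to Ucp3, differed by more than the SD at each step. The steps from Hadh through Acaa2, Acadvl and Acadm to Acadl were smaller than the SD. Hadh was nevertheless above each of these genes in all 3 mice, whereas the order of Acaa2, Acadvl, Acadm and Acadl changed between mice.

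At the median, the members varied between mice about as much as all genes did. None of the 29 members with a mean of at least 50 had a coefficient of variation (CV) over 20%, against 14.9% of the 11956 genes tested, and the median CV was 8.18% for the members and 8.48% for all genes. The genes tested reach down to a mean of 50, and counting alone gives a larger CV at low means. These shares are therefore not matched for level. Counting alone would give the members a median CV of 4.26%, and in 24 of the 29 the CV was larger than counting gives for that gene. The smallest CVs were those of Acsl5 (1.78%), Hadhb (2.52%) and Hadha (2.59%), and the largest those of Acot13 (17.1%), Acsl3 (16.8%), Etfb (15.7%) and Acot2 (15.7%). The 3 smallest lay below what counting alone gives for these genes (2.76%, 5.58% and 3.00%). With 3 mice they cannot be read as a particular steadiness. Below a mean of 50, Ppara had a CV of 53.0% and Ucp3 of 27.6%.

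The members leaned toward mouse 1. Mouse 1 was highest in 20 of the 29 members, against 37.0% of all genes tested, mouse 2 in 5, against 31.8%, and mouse 3 in 4, against 30.2%. The shift was small, with a median log2 of the value over the mean of the mice of 0.10 in mouse 1, -0.02 in mouse 2 and -0.11 in mouse 3, where all genes had medians of 0.00, 0.00 and -0.01. By role, mouse 1 was highest in every enzyme of the hydratase to thiolase group (5 of 5) and in all 4 auxiliary enzymes. Mice 1, 2 and 3 were highest in 3, 1 and 0 acyl-CoA dehydrogenases and in 2, 2 and 0 activation members. The counts were 1, 1 and 1 in both the carnitine shuttle and electron transfer. They were 1, 0 and 1 for the malonyl-CoA enzymes, 2, 0 and 0 for the thioesterases and 1, 0 and 0 for Fabp3. The 4 members highest in mouse 3 were Cpt1a, Acacb and Ppargc1a, with long transcripts, and Etfdh, with one of 2415 bases.

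Transcript length moved with this lean across the whole table. Among genes with canonical transcripts under 3000 bases, mouse 1 was highest in 46.3%, mouse 2 in 38.6% and mouse 3 in 13.8%, whereas among those of 5000 bases or more mouse 3 was highest in 52.1%. Of the 20 members under 3000 bases, mouse 1 was highest in 16, mouse 2 in 3 and mouse 3 in 1, with median log2 values of 0.13, -0.02 and -0.11, against 0.03, 0.02 and -0.06 for all genes of these lengths. In the 9 longer members mouse 1 was highest in 4, mouse 2 in 2 and mouse 3 in 3. Of the 4 members of 3000 to 5000 bases, mice 1, 2 and 3 were highest in 3, 1 and 0. All genes of these lengths had shares of 37.2%, 29.6% and 32.2%. Of the 5 members of 5000 bases or more the counts were 1, 1 and 3, against shares of 22.9%, 24.2% and 52.1%. Cardiomyocyte markers leaned the same way, with mouse 1 highest in 8 of 12, mouse 2 in 1 and mouse 3 in 3, and median log2 values of 0.09, -0.00 and -0.10. The summed normalized count of the 12 genes was 22017, 22404 and 25308 in mice 1 to 3. This sum is not scaled by length and does not rank the mice by cardiomyocyte RNA. Its longest transcripts were highest in mouse 3, Ttn with 7379, 7743 and 10190 and Ryr2 with 3280, 3667 and 4486. The endothelial markers were flatter, with medians of 0.02, 0.01 and -0.04 and sums of 28759, 27701 and 27593. Medians of the fibroblast, leukocyte and mural cell markers were below 0 in mouse 1 and above 0 in mouse 3. The median log2 values in mice 1 to 3 were -0.16, -0.11 and 0.24 for fibroblasts, -0.31, 0.09 and 0.11 for leukocytes and -0.13, -0.11 and 0.15 for mural cells. Mouse 1 was highest in 0 of 5 fibroblast, 0 of 4 leukocyte and 1 of 6 mural markers with a mean of at least 50. Cidea, the 1 adipocyte marker with such a mean, went the other way, with 87, 53 and 51. Mouse 1 also differed from the others in the Y-linked gene Ddx3y, with 1080 against 3 and 1, and in Xist, the RNA of the inactive X chromosome, with 4 against 618 and 869. The parts of length, RNA of the other cell types and sex in the lean toward mouse 1 were not tested and cannot be told apart with 1 mouse of this kind.

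**Figure D5:**
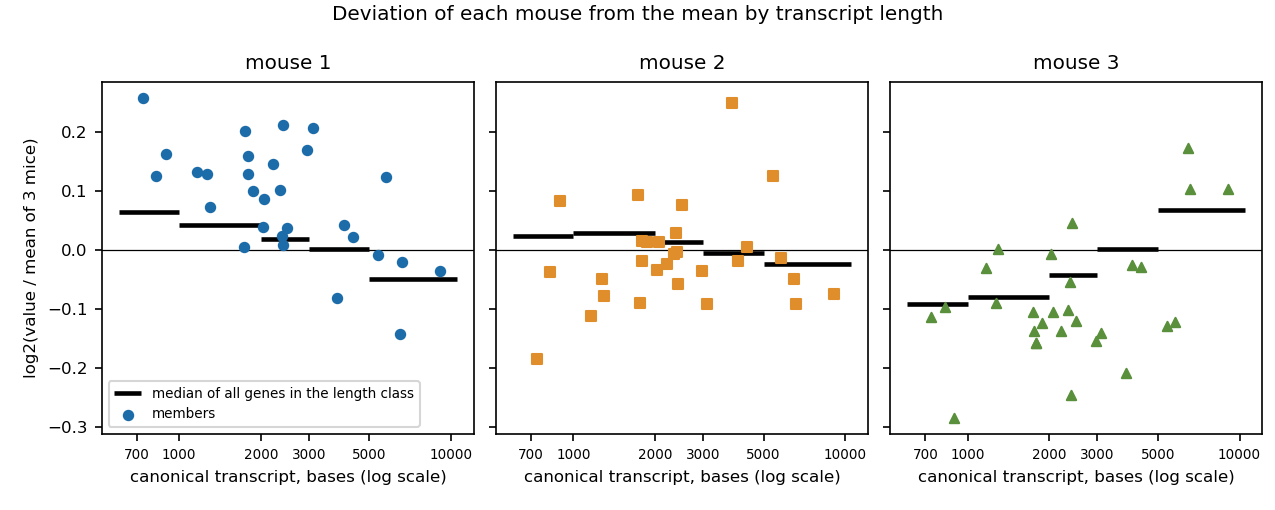
Log2 of the value in each mouse over the mean of the 3 mice (y axis) against the length of the canonical transcript in bases (x axis, log scale) for the 29 members with a mean of at least 50. Points are members and black bars are medians of all genes in a length class; most members lie above the bars in mouse 1 and below them in mouse 3.

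Other genes of the pathway, from lists that do not overlap with the members, lay lower per kilobase. Of 64 such genes 63 were in the table, 59 had a mean of at least 50, and their median of 139.7 per kilobase was close to that of all genes tested, 139.6. The lipolysis genes stood highest, with a median of 434.2 and with Mgll, the monoglyceride lipase, at 790.3 and Abhd5, a coactivator of triglyceride lipase, at 218.8. The targets of PPAR receptors had a median of 112.0, and the highest of them was Cd36, the fatty acid transporter of capillary endothelium, at 769.2. Among the nuclear regulators Rxrb, a partner of PPAR receptors, was the highest at 369.5 and Esrrg, an estrogen-related receptor of oxidative muscle, the lowest at 9.26. The relatives of the acyl-CoA dehydrogenases, with a median of 87.1 and a highest level of 139.7 for Gcdh, all stayed below Acads, the lowest of the 4 members of that family. The lean toward mouse 1 was present here too, with mice 1, 2 and 3 highest in 35, 12 and 10 of the 59 genes. The shares of all genes tested were 37.0%, 31.8% and 30.2%. The lists differed in this. Mice 1, 2 and 3 were highest in 8, 1 and 0 of the other oxidation enzymes and in 2, 2 and 5 of the malonyl-CoA and AMPK genes.

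The 300 bases before the annotated start of each canonical transcript were searched on both strands for the letters bound by nuclear receptors. AGGTCA was found in 9 of 32 members (28.1%) and in 13.6% of the 11943 genes tested. The members were counted whatever their mean, whereas the genes tested had a mean of at least 50. Of the members below this mean, Cpt1b and Ucp3 held a match and Ppara held none. The shares are therefore not on the same terms, and their difference was not tested. TCAAGGTCA, the extended form known for estrogen-related receptors, was found in no member and in 0.394% of genes, and AGGTCANAGGTCA, the direct repeat known for PPAR receptors, in no member and in 0.0251% of genes. Both longer motifs contain AGGTCA. A match is a string of letters and not a binding site, and these data hold no measure of binding. Below, the match and 25 bases on each side are shown for 6 members in which the stretch overlaps no annotated exon, 5′ to 3′ along the gene's strand in GRCm39, with the match in capitals, because these members differ widely in level, from Ucp3 to Acadm and Acadvl. They lie at chr5:114284199-114284254 (Acacb, plus strand), chr3:153650499-153650554 (Acadm, minus), chr11:69906311-69906366 (Acadvl, minus), chr15:89310282-89310337 (Cpt1b, minus), chr8:120121076-120121131 (Mlycd, plus) and chr7:100122024-100122079 (Ucp3, plus).

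Acacb: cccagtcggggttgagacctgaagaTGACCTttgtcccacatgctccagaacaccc
Acadm: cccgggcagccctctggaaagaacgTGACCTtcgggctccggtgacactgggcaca
Acadvl: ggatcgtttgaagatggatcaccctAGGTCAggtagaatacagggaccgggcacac
Cpt1b: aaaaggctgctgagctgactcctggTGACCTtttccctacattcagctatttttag
Mlycd: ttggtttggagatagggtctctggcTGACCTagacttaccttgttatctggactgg
Ucp3: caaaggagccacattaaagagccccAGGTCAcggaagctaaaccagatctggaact

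The match reads AGGTCA along the strand of Acadvl and Ucp3 and its reverse complement TGACCT in the other 4. It starts 87 bases before the annotated start in both Cpt1b and Ucp3, and 254 bases before it in Acadm. Members that hold it include Ucp3, among the lowest in level, and Acadvl and Acadm, above the upper quartile of all genes.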

How the data were processed

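Libraries of ribosome-associated RNA from 3 mice were read single-end over 72 bases. The authors trimmed reads with Trimmomatic 0.39, aligned them with STAR 2.7.11a to mm39 (GRCm39), removed duplicates (Picard 3.1.1) and multi-mapping, ribosomal and mitochondrial reads, counted reads per gene by strand with featureCounts 2.0.4, leaving out reads that overlap several genes, and normalized with DESeq2 1.36.0. The deposited values are a score, normalized counts that the authors rounded to whole numbers. They are not raw counts, so no count model was used. Sums were 7149102, 7158585 and 7268785. The worth of 1 read was estimated from gaps between whole numbers and gave depths of about 7319000, 6753000 and 7565000 reads, to which counting errors refer. The estimate was checked on simulated data.

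Levels are means ± SD over the mice, which the labels call biological replicates. Lengths are those of canonical transcripts in GENCODE mouse release 39, newer than the annotation the authors used, with 17475 of 17583 genes matched. Every window of 72 bases of the members and paired genes was searched in GRCm39 with BLAST 2.17.0 for exact copies elsewhere. A window was countable if it had no copy, no base of another gene in that GENCODE release and lay within the deposited gene limits. Values needed 100 such windows. Ratios were taken within mice with an exact sign-flip test. Genes with a mean of at least 50 served as background. The members, pairs and lists were chosen with earlier results of these data known. Named genes are the members, the paired genes and the highest and lowest gene of each list, of which 1 is not reported here, and other names were chosen after their values were seen. Alternatives were other lengths, rescaling, other minimum means, a pseudocount of 0.5, and leaving out each mouse. Scripts ran in Python 3.11.15 (numpy 2.4.6, pandas 2.3.3, pysam 0.24.0, matplotlib 3.10.9).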

Additional observations from a re-analysis of the deposited data

How the results depend on the processing

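No paired analysis was possible because all 3 mice belong to 1 group. Of the 18 pairs, 10 kept their direction under every alternative and 8 reversed under some. With the length of all annotated exons, the log2 ratio was -1.02 for Acsl1/Acsl4, 0.13 for Acadl/Acadvl, -0.43 for Acadm/Acads and 0.74 for Eci1/Eci2. Without division by length it was 0.34 for Etfdh/Etfa and 0.12 for Acadl/Acadvl. Within the deposited gene limits, an alternative chosen after seeing the data like the countable windows and the restriction by length, it was 0.30 for Acadl/Acadvl and 0.28 for Mlycd/Acacb. Without shared bases Etfa/Etfb was -0.31. Per countable window the ratios were -1.32 for Hadha/Hadhb, -0.60 for Etfa/Etfb, 0.30 for Acadl/Acadvl and 0.32 for Mlycd/Acacb, and with copies across exon junctions kept -0.63 for Etfa/Etfb, 0.30 for Acadl/Acadvl and 0.32 for Mlycd/Acacb. No count per window could be given for Cpt1b. The median level of all members was 79.4 with all exons (all genes tested 72.5, with 21 members above it), 280.8 per countable window and 279.0 with junction copies kept. Among the 11 role groups, 10 medians moved by more than their SD with all exons and all 11 were lower, and 8 moved per countable window. Leaving out a mouse moved the median of all members to between 206.0 and 225.6 and no role group by more than its SD. The count of members with a CV over 20% was 2 at a mean of at least 10 (Ppara and Ucp3) and between 1 and 2 with a mouse left out, namely Acsl3 without mouse 1, Acot2 and Etfb without mouse 2 and Acot13 without mouse 3, where 8.95%, 16.3% and 15.3% of all genes passed. Under 3000 bases the members highest in mouse 2 numbered 3 and those highest in mouse 3 numbered 1, by construction from fewer genes. Rescaling by trimmed means or to equal totals changed none of the counts of members. Depth limits Ppara, Cpt1b and Ucp3, where counting alone gives a CV of 20.8%, 19.5% and 14.5%.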
